A study of Mus musculus with 48 samples.

Results

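The immunity-related GTPases (IRG proteins) studied here were Irgm1, Irgm2, Igtp, Iigp1, Tgtp1 and Tgtp2. They were taken by gene symbol from a table of read counts, where all 6 symbols were found among 49568 genes. The counts came from RAW264.7 cells, an established mouse macrophage line, cultured for 72 h. The cells received PBS (the vehicle) or 1 of 3 synthetic peptides from the third allelic hypervariable region of the HLA-DR β chain at 100 µg/ml, with or without mouse IFN-γ at 5 ng/ml. LE is the peptide of a lupus-risk allele, SE that of a rheumatoid arthritis-risk allele and PE that of protective alleles. The 8 groups were PBS, LE, SE, PE, IFNy (IFN-γ without a peptide), LE+IFNy, SE+IFNy and PE+IFNy. All of them came from this 1 line, the labels name no genetic change in any group, and every value is for a whole culture. A lower level can therefore mean fewer responding cells or less RNA per cell, which cannot be told apart.

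IRG proteins are GTPases that many mouse cells make after exposure to interferons, and IFN-γ is the best known inducer. In infected cells they gather on the membrane of vacuoles that hold certain intracellular parasites and bacteria, and the vacuole can then break open. The family has a regulatory and an effector branch. Irgm1, Irgm2 and Igtp are regulators, named the GMS branch after a methionine in the GTP-binding loop, and sit on the cell's own membranes, where they keep the effectors inactive. Iigp1, Tgtp1 and Tgtp2 are effectors, named the GKS branch after a lysine at that place, and they load onto the vacuole. Guanylate-binding proteins (GBPs) are a related family of IFN-γ-induced GTPases that act at the same vacuoles, and the autophagy machinery that attaches Atg8 proteins to membranes guides both families there.

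The labels name the libraries in 2 ways, with a letter (24 libraries, 3 per group) or with a number after HLA (24 libraries, 3 per group). Total counts ran from 16498562 to 26929356 in the letter-labelled and from 14115928 to 42574154 in the HLA-labelled libraries. With counts scaled to library size as CPM, a check over 20 IFN-γ target genes gave each library a mean log2 CPM, which ran from 7.07 to 7.41 in the 12 letter-labelled libraries with IFN-γ and from 2.47 to 2.95 in the 12 without it, so 0 of 24 went against their label. Of the HLA-labelled libraries, 12 of 24 went against it: those labelled LE or PE were at 7.10 to 7.39 and those labelled IFNy or SE+IFNy at 2.09 to 2.54. The results below are for the letter-labelled libraries, and the HLA-labelled ones are given by label where they are described. All 8 macrophage markers (Adgre1, Csf1r, Cd68, Itgam, Lyz2, Fcgr3, Spi1 and Ptprc) were detected at a median over 1 CPM, with a summed level of 6223 to 12270 CPM. None of 16 markers of T cells, B cells, fibroblasts, epithelium or neutrophils reached a median of 1 CPM, the highest summed level of a list in any library was 1.84 CPM, and Cd8a, Ms4a1, Epcam and Ly6g had no count.

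Of the 6 genes, 5 lie on chromosome 11 (GENCODE M21, GRCm38). Irgm1 (ENSMUSG00000046879.7) is at chr11:48861968-48871683 on the minus strand. Tgtp1 (ENSMUSG00000078922.9) at chr11:48985327-48994172 and Tgtp2 (ENSMUSG00000078921.3) at chr11:49057194-49064206 follow on the same strand. Igtp (ENSMUSG00000078853.8) at chr11:58199556-58207591 and Irgm2 (ENSMUSG00000069874.7) at chr11:58199618-58222782 overlap on the plus strand, and 162 exon bases belong to both. Iigp1 (ENSMUSG00000054072.12) lies on another chromosome. A read of 100 bases had to map to 1 place to be counted, which bears most on the Tgtp copies, whose longest coding transcripts were identical at 2804 of 2810 aligned bases (99.8%). Of the 100-base windows in those transcripts, 83.3% in Tgtp1 and 80.4% in Tgtp2 also occurred in a transcript of another gene. This left 455 and 531 windows of their own. Exons outside these transcripts were not searched, so the windows only estimate where their counts can come from. Their levels and the split between the copies are uncertain. The share was 5.67% in Igtp and 2.48% in Irgm2, which share windows with each other, and 0 in Irgm1 and Iigp1. Tgtp1 also shares 223 exon bases with Gm12185, a neighbouring IRG gene on the same strand.

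Promoters of IFN-γ-induced genes often hold palindromic GAS elements and ISRE elements, the latter bound by the IRF factors. The promoter windows of 5 members were in the RefSeq table used (GRCm38.p6, 250 bases before to 50 after the start), and that of Iigp1 was not. They were searched on both strands for the GAS letters TTCNNNGAA and for the ISRE letters GAAA and GAAA with any 2 bases between them. The stretches around the matches are shown with the matches in capitals. Those of Irgm2, Igtp, Tgtp1 and Tgtp2 hold a feature that these members share, and that of Irgm1 is given beside them.
Irgm2, chr11:58214887-58214937, plus strand: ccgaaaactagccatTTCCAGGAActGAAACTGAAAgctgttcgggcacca
Igtp, chr11:58199496-58199546, plus strand: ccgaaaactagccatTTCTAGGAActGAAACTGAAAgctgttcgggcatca
Tgtp1, chr11:48992299-48992349, minus strand: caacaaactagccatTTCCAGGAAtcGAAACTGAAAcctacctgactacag
Tgtp2, chr11:49064258-49064308, minus strand: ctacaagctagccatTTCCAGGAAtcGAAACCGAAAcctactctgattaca
Irgm1, chr11:48871420-48871465, minus strand: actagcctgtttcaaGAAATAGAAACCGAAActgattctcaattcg

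In Irgm2, Igtp, Tgtp1 and Tgtp2 a single GAS match was followed after 2 bases by a single ISRE match, and 30 of the 51 bases shown were the same in all 4. The stretches of Irgm2 and Igtp were identical at 49 of 51 bases, whereas those of Tgtp1 and Tgtp2, whose transcripts are nearly the same, were identical at 39. Counted from the RefSeq start, the GAS match began at base -75 in Irgm2, -45 in Igtp, -88 in Tgtp1 and -81 in Tgtp2. Irgm1 differed in having no GAS match and 2 overlapping ISRE matches, beginning at bases -30 and -24. Of 32851 promoter windows in the table, 8.3% held a GAS match, 3.44% an ISRE match and 0.454% both. The joined letters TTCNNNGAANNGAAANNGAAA, a pattern read off these members, were found in 5 windows (0.0152%): the 4 above and Gm12185. A match describes letters in a window and was not tested as a binding site, and a window with no match says nothing of sites elsewhere.

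**Figure D1:**
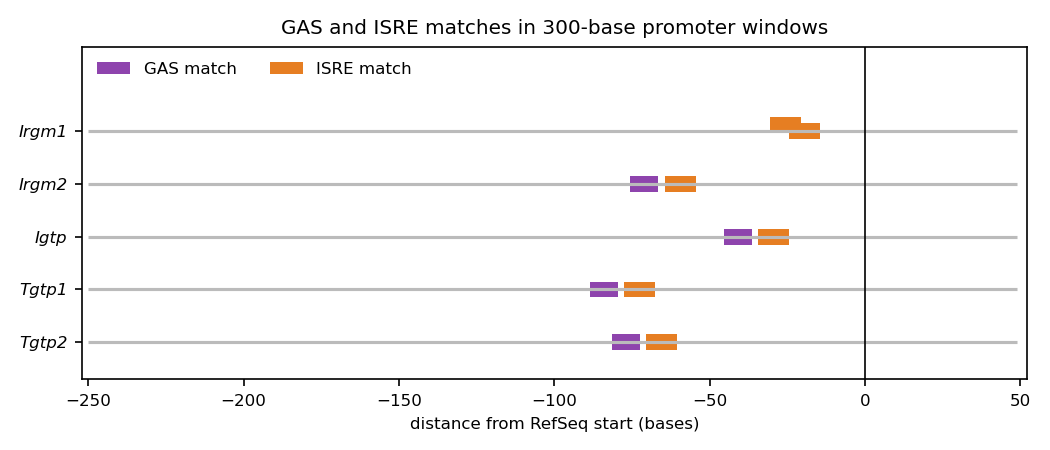
Positions of GAS matches (purple) and ISRE matches (orange) in the promoter windows of 5 IRG genes, by distance in bases from the RefSeq start (vertical line). In 4 genes a GAS match lies just before an ISRE match, and in Irgm1 there are 2 overlapping ISRE matches alone.

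The first comparison, IFNy against PBS, asked how the family answers IFN-γ without a peptide. All 3 regulators were present without IFN-γ and rose with it, whereas the 3 effectors were near 0 without IFN-γ and reached 5.26 to 101 CPM with it. Irgm1, which takes part in vacuole and autophagy control, stood at 61.5, 54.5 and 54.5 CPM in PBS replicates 1 to 3. With IFN-γ it stood at 177, 266 and 165 CPM, and the groups did not overlap. The log2 fold change was 1.84 (SE 0.155, edgeR adjusted p 3.67e-06). Irgm2, a regulator found at the Golgi, had 13.4, 10.2 and 15.3 CPM in PBS and 70.4, 91.1 and 67.4 CPM with IFN-γ. Its log2 fold change of 2.56 had an SE of 0.154 and an adjusted p of 1.98e-07 in edgeR. Igtp, a regulator of the endoplasmic reticulum, changed most among the 3: it had 8.37, 8.55 and 8.17 CPM in PBS and 64.3, 95.9 and 67.4 CPM with IFN-γ. Its log2 fold change was 3.18 (SE 0.154, edgeR adjusted p 2.82e-08). All 3 regulators were called higher, which means an adjusted p under 0.05 and a fold change over 1.5, where 9.79% of 12242 tested genes were.

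The effectors passed the filter on low counts only through the IFN-γ libraries, so a call for them holds no information and their fitted fold changes depend on the prior count. They are given as ratios of summed CPM with exact 95% intervals, which cover counting error only. Iigp1, which is among the first IRG proteins to load onto the vacuole of Toxoplasma gondii, had 1 count in all PBS libraries together and 66.5, 101 and 58.3 CPM with IFN-γ. Its 5460 counts with IFN-γ gave a ratio of 5282 (948 to 208676). Tgtp2 had 5 counts in PBS and 28.5, 45 and 29.6 CPM with IFN-γ, a ratio of 480 (205 to 1480). Tgtp1, its near-identical copy, had 1 count in PBS and 5.62, 9.57 and 5.26 CPM with IFN-γ, a ratio of 478 (85.4 to 18914). No effector library with IFN-γ came near the range of those without it. Among the 3 regulators the middle log2 fold change was that of Irgm2, at 2.56, beside a median of -0.01 for all tested genes. A median over all 6 members is not given, because the effectors would help to set it.

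Per kilobase of merged exons, the levels with IFN-γ were 37.5 ± 8.61 CPM for Igtp, 34.9 ± 9.47 for Irgm1, 20.7 ± 3.49 for Irgm2, 12.9 ± 3.91 for Iigp1, 11.7 ± 3.14 for Tgtp2 and 2.13 ± 0.746 for Tgtp1 (SD, n = 3). Igtp and Irgm1 differed by less than their spread, as did Iigp1 and Tgtp2. This order depends on the length used. Per kilobase of the longest coding transcript, Irgm1 came first at 89.7 ± 24.4 CPM, Igtp had 37.5 ± 8.61, Iigp1 24.1 ± 7.29, Irgm2 21.6 ± 3.65, Tgtp2 12.2 ± 3.28 and Tgtp1 2.41 ± 0.847. Under both lengths the Tgtp copies were lowest, and their levels per length do not allow for the windows that no unique read can cover. Tgtp1 took 15.1% to 22% of the counts of both copies in the 12 libraries with IFN-γ (median 18.7%). Per window that its transcript shares with no other gene, it had 4.82 counts in these libraries together and Tgtp2 had 18.

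**Figure D2:**
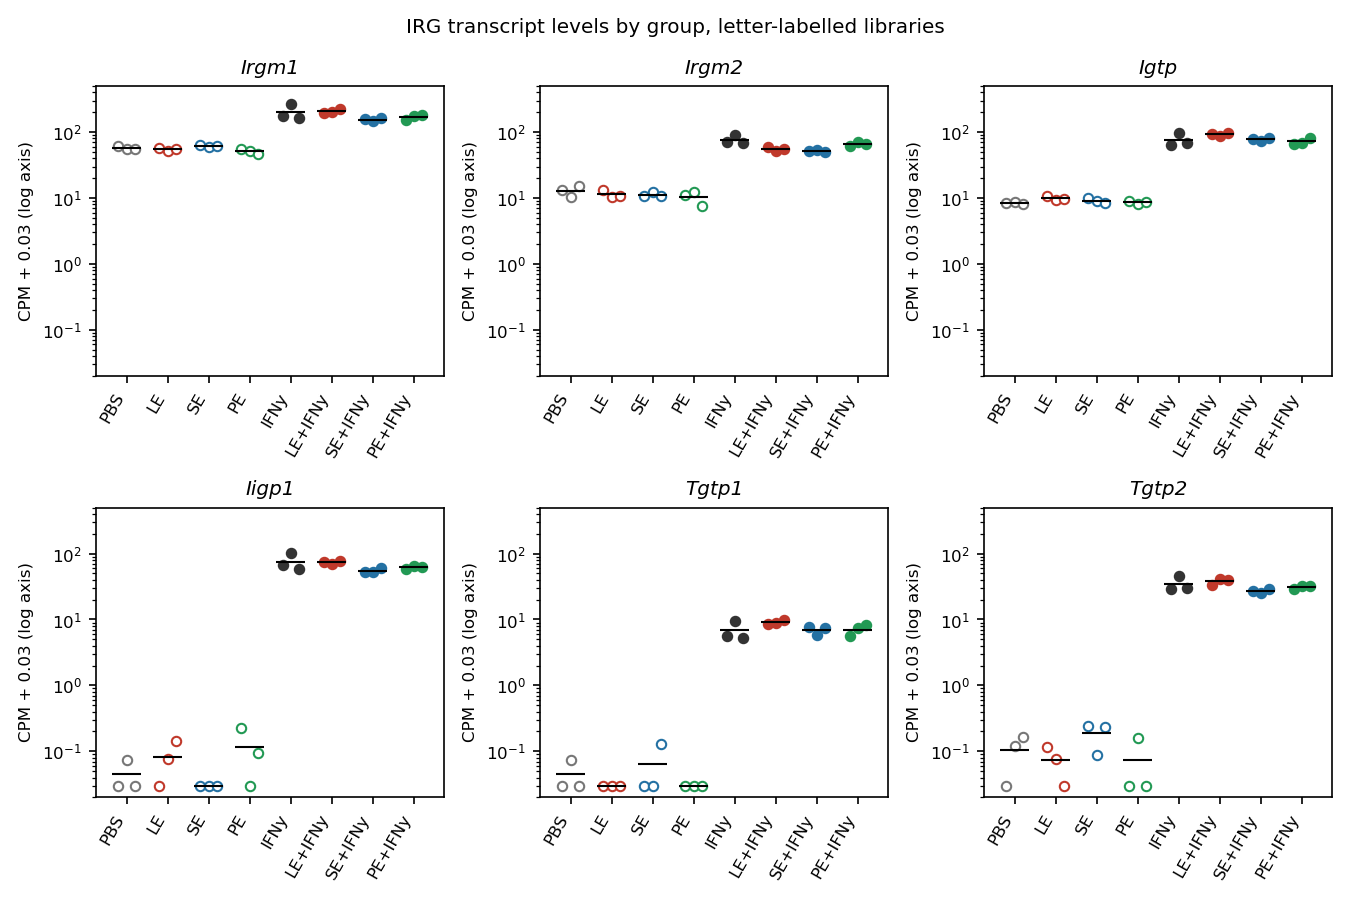
Levels of the 6 IRG transcripts in CPM (log axis, 0.03 CPM added so that zeros show) in the 24 letter-labelled libraries; points are libraries, bars are group means, and filled points are groups with IFN-γ. The regulators (upper row) have a level without IFN-γ, the effectors (lower row) lie near 0 without it, and no group with IFN-γ overlaps one without.

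In the IFNy group, replicate 2 was the highest library for all 6 members. It stood at 1.55 times the mean of replicates 1 and 3 for Irgm1, 1.32 times for Irgm2, 1.46 for Igtp, 1.62 for Iigp1, 1.76 for Tgtp1 and 1.55 for Tgtp2. Replicate 2 was also the highest for 10 of 10 other IRG genes with at least 1 CPM (median ratio 1.31), beside 6 of 10 GBPs (1.12), 7 of 20 IFN-γ targets (0.99) and 36.3% of 11223 genes at 1 CPM or more (median ratio 1). Its target level of 7.07 was the lowest in the group, against 7.10 and 7.15, and its total of 24449919 counts was close to the 24400481 of replicate 1. Its part in the comparisons that use this group is given by leaving out each IFNy library in turn, an alternative chosen after seeing the data.

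The second comparison asked whether a peptide alone moved the family. Irgm1 had 57.4, 52.1 and 56.1 CPM with LE, 63.2, 59.6 and 62.2 CPM with SE and 55.5, 51.5 and 46.1 CPM with PE, and each range overlapped the PBS values of 54.5 to 61.5. Irgm2 ran from 10.3 to 13.2 CPM with LE, from 10.6 to 12.1 with SE and from 7.46 to 12.4 with PE. Igtp ran from 9.25 to 10.7 CPM with LE, from 8.32 to 9.9 with SE and from 8.04 to 9.12 with PE, and only the LE values lay above all those of PBS. The 3 regulators were tested, and edgeR called none. Of 12420 genes it called 0.0242% with LE, 1.92% with SE and 3.13% with PE. None had an unadjusted p under 0.05, and DESeq2 called none either. The log2 fold changes ran from -0.33 to 0.23, and the widest 95% interval was that of Irgm2 with PE, from -0.73 to 0.06. The effectors were too low to be tested: over 3 libraries Iigp1 had 3 counts with LE, 0 with SE and 5 with PE, Tgtp1 had 0, 2 and 0, and Tgtp2 had 3, 10 and 3. At this depth a difference between these groups was not detectable for them. Without replicate 2, Irgm2 was called lower with PE, at -0.64 (edgeR adjusted p 0.0445), where 8.21% of 12443 genes were called in either direction.

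The third comparison set each peptide with IFN-γ against the same peptide alone, the study's Model B. All 3 regulators were called higher with every peptide. Of 12947 genes, 19.1% were called higher with LE, 15.1% with SE and 12.1% with PE. Irgm1 reached 196, 202 and 225 CPM with LE+IFNy, 156, 149 and 161 with SE+IFNy and 155, 175 and 180 with PE+IFNy. In log2 units this was 1.91 ± 0.0746, 1.33 ± 0.0738 and 1.74 ± 0.075 (SE), and edgeR gave adjusted p-values of 1.12e-14, 4.29e-12 and 7.43e-14. Irgm1 thus had its smallest rise in the SE groups.

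Irgm2 reached 59.3, 52.5 and 54.8 CPM with LE+IFNy, 51.7, 52.6 and 50.6 with SE+IFNy and 60.7, 70.2 and 65.5 with PE+IFNy. It rose by 2.28 ± 0.121, 2.21 ± 0.122 and 2.66 ± 0.123 in log2 units (SE), and edgeR gave adjusted p-values of 1.48e-12, 3.76e-12 and 2.42e-13. Igtp reached 92.4, 86.2 and 97 CPM with LE+IFNy, 78.6, 73.8 and 81 with SE+IFNy and 65.9, 68.4 and 82.5 with PE+IFNy. Its log2 fold changes were nearly the same for the 3 peptides, at 3.22 ± 0.0969, 3.09 ± 0.0981 and 3.08 ± 0.0993 (SE), and edgeR gave adjusted p-values of 1.45e-16, 4.84e-16 and 5.87e-16.

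The effectors rose from next to no counts with every peptide. Iigp1 had 74.9, 68.3 and 77.2 CPM with LE+IFNy, a ratio to LE of 1527 (522 to 7406), and 58.2, 64.3 and 61.9 CPM with PE+IFNy, a ratio to PE of 727 (311 to 2241). With SE+IFNy it had 51.8, 53.2 and 59.8 CPM and was at least 1113-fold higher than with SE, where all libraries had 0 counts (floor of 3 counts over the group). Tgtp2 had 33.6, 40.6 and 39.5 CPM with LE+IFNy, 27.5, 25.5 and 28.5 with SE+IFNy and 28.7, 32.1 and 32.5 with PE+IFNy, at ratios of 788 (270 to 3825), 165 (89.5 to 345) and 613 (209 to 2974). Tgtp1 had 8.47, 8.89 and 9.93 CPM with LE+IFNy, 7.75, 5.87 and 7.29 with SE+IFNy and 5.62, 7.33 and 8.08 with PE+IFNy. It was at least 189-fold higher than with LE, 212-fold higher than with SE (58.5 to 1758) and at least 138-fold higher than with PE. The intervals of these ratios rest on 10 counts or fewer in the group without IFN-γ and overlap between peptides. Among the 3 regulators the middle log2 fold change was that of Irgm2, at 2.28 (LE), 2.21 (SE) and 2.66 (PE). The median of all genes lay within 0.01 of 0.

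The fourth comparison set each peptide with IFN-γ against IFN-γ alone, the study's Model A, and asked whether a peptide changes the response. No member was called with any peptide by edgeR or DESeq2. Among 12720 genes, 15.5% were called with LE, 7.39% with SE and 0.629% with PE. An unadjusted p under 0.05 was reached by 3 of 6 members with LE, 4 with SE and 2 with PE. By adjusted p alone 1 of 6 passed with LE (50.5% of all genes did), 4 of 6 with SE (33.4%) and 0 of 6 with PE (10%). The median log2 fold change of the members was 0.09 with LE, -0.37 with SE and -0.18 with PE, and that of all genes lay within 0.01 of 0.

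These counts turned on IFNy replicate 2, the library that was high for every member. Without it, 6 of 6 members passed the adjusted p with LE, 5 of them higher and Irgm2 lower, with a member median of 0.33 and 1 call. With SE, 2 of 6 then passed, Igtp higher and Irgm2 lower, with a member median of -0.13, and with PE 0 of 6 passed (median 0.05). Over all genes the share that passed was 45.3% with LE, 30.6% with SE and 14% with PE. Without IFNy replicate 3 instead, 3 of 6 members passed below IFN-γ alone with PE, where 10.1% of all genes passed in either direction.

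Irgm2 was below IFN-γ alone with LE and SE whichever IFNy library was left out. Its highest library with LE+IFNy (59.3 CPM) and with SE+IFNy (52.6 CPM) lay below the lowest IFNy library (67.4 CPM). The log2 difference was -0.46 with LE (95% interval -0.65 to -0.27, edgeR adjusted p 0.000349) and -0.57 with SE (-0.76 to -0.38, edgeR adjusted p 9.75e-05). Both were under the fold minimum, which lies within both intervals. Without IFNy replicate 2 they were -0.32 (edgeR adjusted p 0.00115) and -0.43 (edgeR adjusted p 0.000143), and without IFNy replicate 1 or 3 the SE difference was -0.62 and -0.65 and became a call. With PE the difference was -0.22 (-0.40 to -0.03, edgeR adjusted p 0.12).

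Irgm1, Iigp1 and Tgtp2 passed the adjusted p below IFN-γ alone with SE, under the fold minimum, and none of them passed without IFNy replicate 2. For Irgm1 the log2 difference was -0.39 (-0.64 to -0.14, edgeR adjusted p 0.018), and -0.15 without that library (edgeR adjusted p 0.117). For Iigp1 it was -0.46 (-0.74 to -0.18, edgeR adjusted p 0.0123), -0.19 without replicate 2 (edgeR adjusted p 0.0734), and -0.61 and a call without IFNy replicate 3. For Tgtp2 it was -0.35 (-0.62 to -0.08, edgeR adjusted p 0.0467), and -0.11 without replicate 2 (edgeR adjusted p 0.414). The SE+IFNy libraries of Irgm1 (149 to 161 CPM) lay below all IFNy libraries, those of Iigp1 overlapped IFNy replicate 3, and for Tgtp2 the highest of them and the lowest IFNy library both stood at 28.5 CPM.

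Igtp and Tgtp1 did not share this direction. With LE, Igtp differed by 0.27 (0.04 to 0.51, edgeR adjusted p 0.052) and Tgtp1 by 0.41 (0.02 to 0.80, edgeR adjusted p 0.0775). Without IFNy replicate 2 the differences were 0.48 for Igtp (edgeR adjusted p 0.000138), still under the fold minimum, and 0.73 for Tgtp1 (edgeR adjusted p 0.00106), which became a call. With SE they differed by 0.03 (-0.21 to 0.27) and 0.02 (-0.38 to 0.42). With Tgtp1 and Tgtp2 summed, the copies were -0.28 with SE (edgeR adjusted p 0.121); Tgtp2 holds most of these counts. Irgm1, Iigp1 and Tgtp2 with LE differed by 0.03 (-0.22 to 0.29), -0.04 (-0.32 to 0.24) and 0.14 (-0.13 to 0.40), and the sign for Irgm1 turned under upper quartile scaling.

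**Figure D3:**
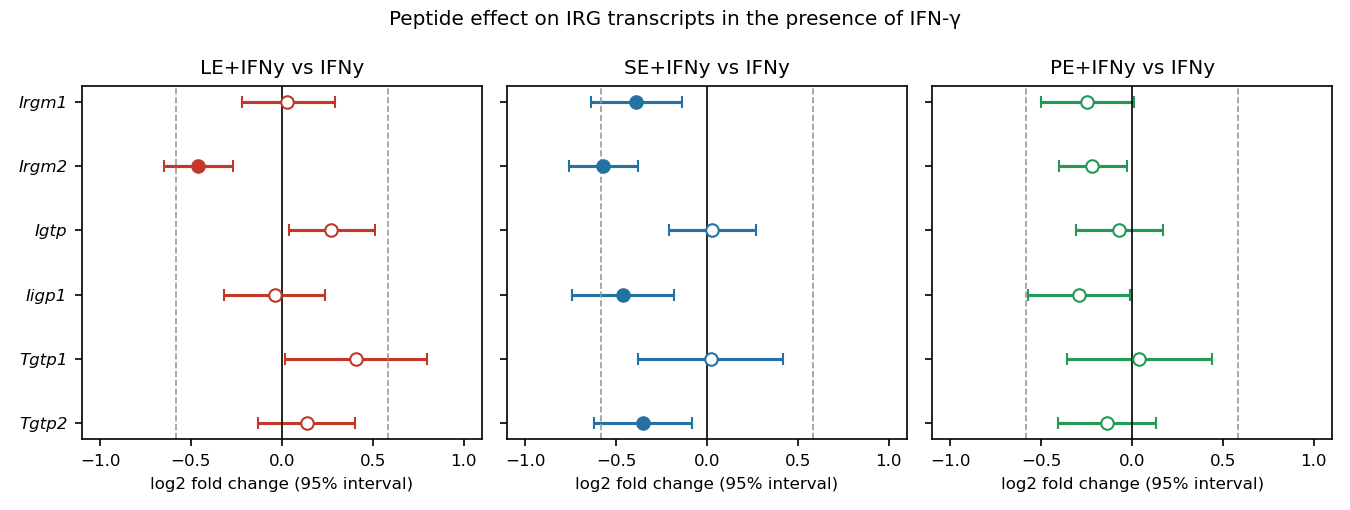
Log2 fold change of each IRG transcript for peptide plus IFN-γ against IFN-γ alone, with 95% intervals from the edgeR fit of 12 libraries. Filled points have an adjusted p under 0.05, dashed lines mark the 1.5-fold minimum, and no point lies beyond them; within LE and within SE, Irgm2 lies furthest from 0.

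The peptides with IFN-γ were then compared with each other in 3 pairs at the same dose and time, with p-values adjusted over all genes within each pair. No member was called by edgeR or DESeq2 between LE+IFNy and SE+IFNy (4.93% of genes), LE+IFNy and PE+IFNy (21.6%) or SE+IFNy and PE+IFNy (7.59%). Unadjusted p-values under 0.05 numbered 4, 4 and 1 of 6. By adjusted p alone 3 of 6, 2 of 6 and 1 of 6 members passed, beside 35.6%, 59.9% and 34.4% of all genes. LE+IFNy was above SE+IFNy by 0.43 for Irgm1 (0.17 to 0.68, edgeR adjusted p 0.0113), 0.42 for Iigp1 (0.14 to 0.70, edgeR adjusted p 0.0203) and 0.49 for Tgtp2 (0.21 to 0.76, edgeR adjusted p 0.00765). In each of these the lowest LE+IFNy library lay above the highest SE+IFNy library. Against PE+IFNy, LE+IFNy was higher for Igtp by 0.34 (0.10 to 0.58, edgeR adjusted p 0.0152) and lower for Irgm2 by -0.24 (-0.43 to -0.05, edgeR adjusted p 0.0269). SE+IFNy was below PE+IFNy for Irgm2 by -0.35 (-0.54 to -0.16, edgeR adjusted p 0.00562). Leaving out each replicate number in turn, Irgm1 and Tgtp2 kept an adjusted p under 0.05 for LE+IFNy over SE+IFNy each time. Iigp1 lost it without replicate 1 (0.37, edgeR adjusted p 0.15), as did Igtp for LE+IFNy over PE+IFNy (0.27, edgeR adjusted p 0.112). Irgm2 lost it for LE+IFNy against PE+IFNy without replicate 2 (-0.15, edgeR adjusted p 0.0875) or 3 (-0.23, edgeR adjusted p 0.109), and for SE+IFNy against PE+IFNy without replicate 3 (-0.33, edgeR adjusted p 0.0517). These pairs use the IFNy libraries only in the shared estimate of the spread.

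Whether a peptide changed the fold response to IFN-γ was tested as an interaction, which could be read for the 3 regulators. None was called by edgeR or DESeq2, beside 18.9% of 13096 genes with LE, 7.96% with SE and 0% with PE. By adjusted p alone 0 of 3 passed with LE (38.5% of genes), 1 of 3 with SE (19.8%) and 0 of 3 with PE (0%), and unadjusted p-values under 0.05 numbered 0, 1 and 0. The 1 that passed was Irgm1 with SE, whose response was smaller by a log2 difference of -0.50 (-0.84 to -0.16, edgeR adjusted p 0.0317). Without replicate 3, or without IFNy replicate 1 or 3, it was -0.59 to -0.63 and was called. Without IFNy replicate 2 it was -0.26 (edgeR adjusted p 0.113) and without replicate 2 of every group -0.22 (edgeR adjusted p 0.3). Without replicate 1 of every group it was -0.64 and also lost the adjusted p (edgeR adjusted p 0.0836). Irgm2 had -0.28 with LE (-0.69 to 0.13) and -0.34 with SE (-0.76 to 0.07), and Igtp 0.04 (-0.33 to 0.40) and -0.08 (-0.45 to 0.28). The interactions of the effectors rest on a base near 0 and are not given.

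In the order of group means, every group with IFN-γ stood above every group without it for all 6 members, and neighbours with the same IFN-γ status mostly overlapped in range. LE+IFNy was first for Irgm1, Igtp, Tgtp1 and Tgtp2, and IFNy was first for Irgm2 and Iigp1. For Iigp1 this rank rests on IFNy replicate 2, at 101 CPM. Replicates 1 and 3 of IFNy, at 66.5 and 58.3 CPM, lay below every LE+IFNy library (68.3 to 77.2 CPM). SE+IFNy was last of the 4 for Irgm1, Irgm2, Iigp1 and Tgtp2. Gaps without overlap between neighbours among the IFN-γ groups were those of LE+IFNy over SE+IFNy for Igtp, LE+IFNy over PE+IFNy for Iigp1 and Tgtp1, PE+IFNy over LE+IFNy for Irgm2 and PE+IFNy over SE+IFNy for Tgtp2.

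The makeup of the family was described within each library, where scaling between libraries cancels. The effectors took 0% to 0.374% of the summed CPM of the 6 members in the 12 libraries without IFN-γ. With IFN-γ they took 24.6% ± 0.957 in IFNy, 25.3% ± 0.321 in LE+IFNy, 23.8% ± 0.716 in SE+IFNy and 24.4% ± 0.57 in PE+IFNy (SD, n = 3 each), so the makeup by branch differed little between peptides. The ratio of Igtp to its neighbour Irgm2, chosen after their values were seen, differed more. It was 0.913, 1.05 and 0.999 in IFNy replicates 1 to 3. With LE+IFNy it was 1.56, 1.64 and 1.77 and with SE+IFNy 1.52, 1.4 and 1.6, and all 6 libraries lay above the IFNy range. With PE+IFNy it was 1.08, 0.974 and 1.26, which overlapped IFNy. Without IFN-γ it ran from 0.536 to 1.15 over the 12 libraries, and with LE, SE or PE alone it was 0.869 ± 0.0517, 0.819 ± 0.0979 and 0.878 ± 0.252 beside 0.667 ± 0.156 in PBS (SD, n = 3). IFNy replicate 2, high in both genes, had a ratio near that of replicate 3. The 162 shared exon bases and the shared windows limit how cleanly reads of the neighbours are told apart.

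**Figure D4:**
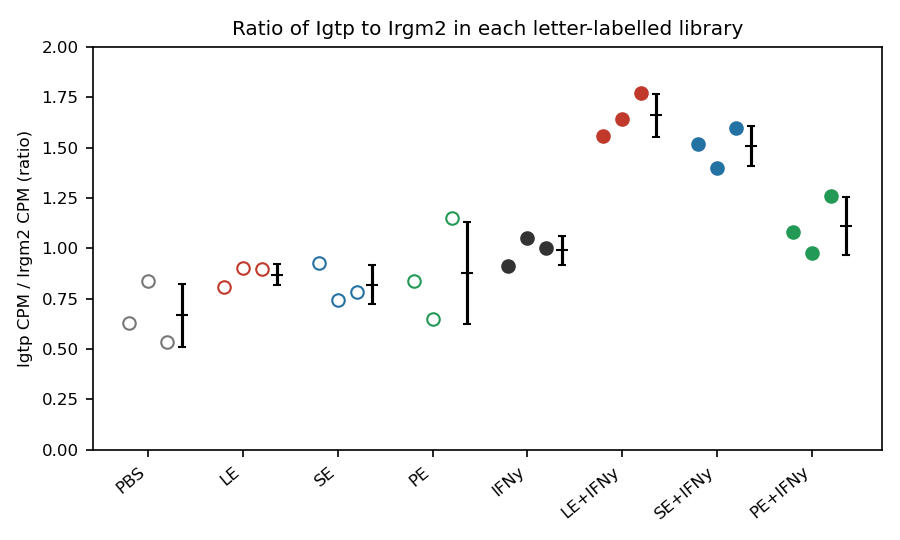
Ratio of Igtp to Irgm2 CPM in each of the 24 letter-labelled libraries; points are libraries, filled with IFN-γ, and the bars beside them give mean and SD. The LE+IFNy and SE+IFNy libraries lie between 1.4 and 1.77, above the IFNy libraries at 0.913 to 1.05, and PE+IFNy overlaps IFNy.

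Of 11 other IRG genes listed, 10 were tested against PBS, and 5 of these passed the filter only through the IFN-γ libraries, so that their calls hold no information. Of the 5 tested also without IFN-γ, 3 were called higher with it, beside 9.79% of all tested genes. They were Ifi47, Gm5431 (1.52) and 9930111J21Rik1 (0.87). Ifi47, an effector of the same branch, rose by 2.95 in log2 units (edgeR adjusted p 1.76e-07) and went from 5.05 ± 0.928 to 39.1 ± 8.18 CPM (SD, n = 3 in both groups). Gm12185, which carries the joined GAS and ISRE letters, had 14 counts over the PBS libraries and 358 over the IFNy libraries (4.93 ± 1.63 CPM, SD, n = 3), and it shares windows with the Tgtp copies. Irgq, a quasi-GTPase relative, was not called (-0.33, edgeR adjusted p 0.0189). Against IFN-γ alone, 2 of 10 were called with LE (F830016B08Rik higher at 1.00, Irgq lower at -0.82), 3 lower with SE (Gm12185 -0.83, Gm4951 -0.63, 9930111J21Rik2 -0.62) and 1 lower with PE (9930111J21Rik1 -0.73), beside the 15.5%, 7.39% and 0.629% of all genes called in these comparisons. The medians of the list were -0.18, -0.49 and -0.26. Ifi47 lay below IFN-γ alone by -0.50 with LE and -0.41 with SE (edgeR adjusted p 0.00106 and 0.00761) and differed by 0.02 with PE. Without IFNy replicate 2 these were -0.31 and -0.22 (edgeR adjusted p 0.00538 and 0.0505). Its interaction was called with both LE (-0.62) and SE (-0.61), at 0.0233 and 0.04 by edgeR's adjusted p, and neither was called without that library (-0.43 for both). Without it 0 of 10 were called with SE, where Gm12185 had -0.54, Gm4951 -0.41 and 9930111J21Rik2 -0.56 (edgeR adjusted p 0.0356, 0.0342 and 0.0151), and the median of the list was -0.32.

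Of 11 GBPs, 6 were tested also without IFN-γ. All 6 of these were called higher with it, beside 9.79% of all tested genes, by 2.08 to 8.03 in log2 units (median 5.30). The other 5 passed the filter only through the IFN-γ libraries. Against IFN-γ alone, 8 of 11 were called higher with LE (median 0.72), beside 15.5% of all genes called in either direction, where none of the 6 IRG members was. The count was also 8 without IFNy replicate 2, 7 without replicate 1 and 5 without replicate 3. Gbp2, at 145 ± 11.3 CPM with IFN-γ, had 401 ± 34.1 with LE+IFNy, 295 ± 27.7 with SE+IFNy and 120 ± 3.72 with PE+IFNy (SD, n = 3). With SE, Gbp2 and Gbp2b were called higher (1.02 each) and Gbp11 lower (-1.09), and with PE, Gbp10 was lower (-0.65, and -0.58 and not called without IFNy replicate 2). The difference between the families was not tested. Of the upstream genes of IFN-γ signalling, 8 of 8 were tested. Among those reported, IFN-γ raised Irf1 (2.84), Socs1 (2.37) and Ptpn2 (0.61), and Ifngr2, a receptor chain, fell by 0.64 on the log2 scale. With LE, Jak1, a receptor-bound kinase, was higher (0.78) and Socs1, an inhibitor of the pathway, lower (-0.73), and with SE, Irf1 was lower (-0.64, and -0.51 and not called without IFNy replicate 2). Of 10 genes of Atg8 conjugation, 7 passed the adjusted p with IFN-γ (39.7% of all genes did), all at less than 1.5-fold (median of the list -0.23), and Atg12 was higher with LE (0.75). Of Traf6, Trim21 and Sqstm1, which act at ubiquitin-marked vacuoles, Sqstm1 was called higher with IFN-γ (0.82).

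The genes most like each member were found by Pearson correlation of log2 CPM, among 8631 genes with a mean of at least 10 CPM. Over the 24 libraries, which share the jump with IFN-γ, the members correlated with each other at 0.974 to 0.994. The most alike outside them were Parp11, Gbp8 and Tapbpl for Irgm1 (0.982 to 0.985), Fam26f, Mb21d2 and Ifi47 for Irgm2 (0.987 to 0.990) and Gbp3, Serpina3f and Slamf8 for Igtp (0.992 to 0.994). For Iigp1 they were the class II genes H2-Aa, H2-DMb2 and H2-Eb1 (0.993 to 0.994), for Tgtp1 Batf2, Tap1 and Gbp9 (0.994 to 0.997) and for Tgtp2 Tap1, Gbp8 and Tapbpl (0.992 to 0.994). Over the 12 libraries with IFN-γ the family split. Irgm1 and Iigp1 correlated at 0.964, Irgm1 and Tgtp2 at 0.951 and Igtp and Tgtp1 at 0.915, whereas Irgm2 had -0.062 with Igtp and 0.006 with Tgtp1. The genes most like Irgm2 there were Gusb, Ccdc127 and Slc25a44 (0.958 to 0.963). For both Irgm1 and Tgtp2 they were Smpdl3a, Atp6ap1 and Cd84 (0.903 to 0.968). These 12 libraries share IFNy replicate 2, which is high for all members.

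The HLA-labelled libraries held the members at 2 levels, which went with the target genes and not with the label. Iigp1 was at 168, 185 and 223 CPM in libraries labelled LE, at 199, 228 and 223 CPM in those labelled PE, and from 0 to 0.615 CPM in those labelled PBS, SE, IFNy or SE+IFNy. In those labelled LE+IFNy and PE+IFNy it was at 150, 141 and 141 and at 166, 203 and 183 CPM. Every high HLA-labelled library had more Iigp1 than the highest letter-labelled one, which had 101 CPM, and the effectors' share of the family was 40.1% to 49% in them. The libraries labelled LE had a ratio of Igtp to Irgm2 of 1.55 to 1.68 and those labelled PE 0.924 to 1.22, whereas in those labelled LE+IFNy or PE+IFNy it was 0.571 to 0.681. In the count table, HLA-labelled columns follow the letter columns of each of the 8 groups, and in 0 of 8 are they labelled with that same group. Those after groups without IFN-γ were labelled SE+IFNy, SE, PBS and IFNy, and their target means were 2.09 to 2.70. Those after groups with IFN-γ were labelled PE+IFNy, PE, LE and LE+IFNy, at 6.71 to 7.39. The target level thus went with the position of the columns, and the reason was not tested. Columns were matched to samples by name, and an exchange of columns or of labels cannot be told apart from these data, so a value given here by label may belong to another group. These values enter no comparison above.

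**Figure D5:**
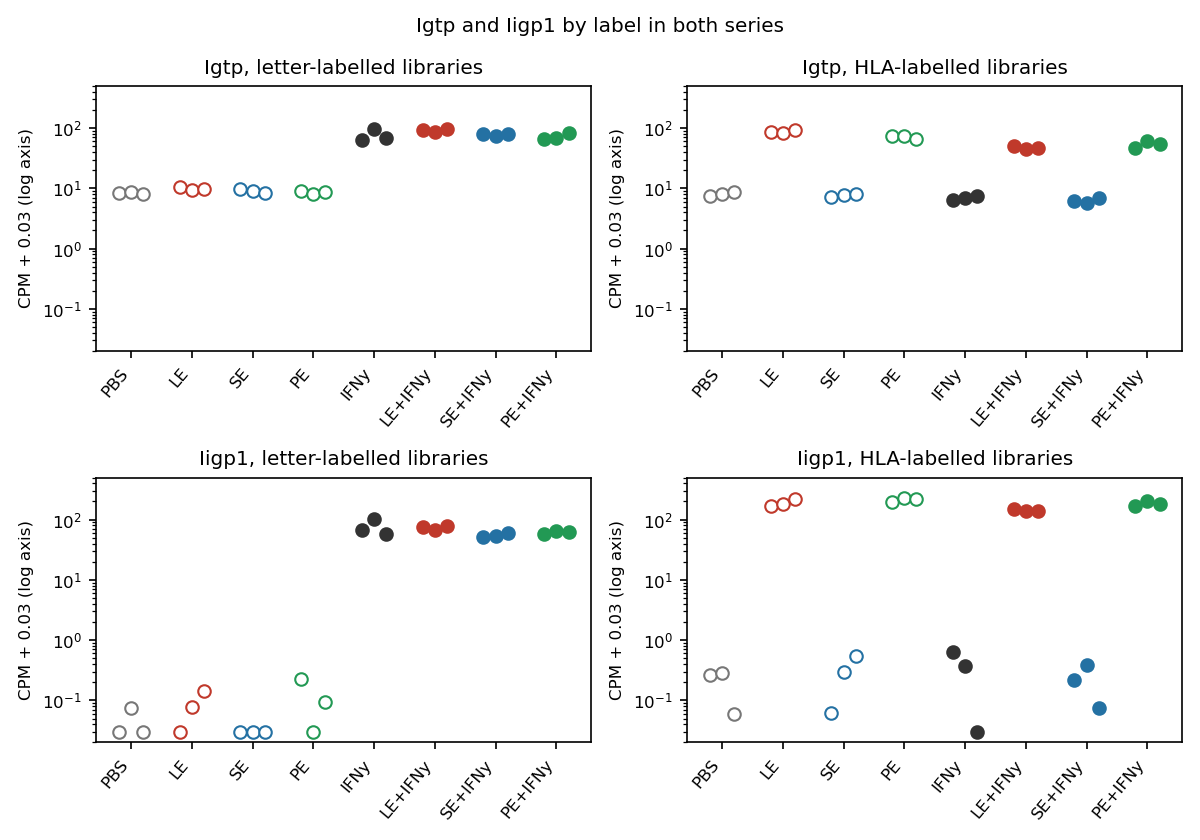
Igtp and Iigp1 in CPM (log axis, 0.03 CPM added) by labelled group in the letter-labelled (left) and HLA-labelled (right) libraries; points are libraries, filled where the label names IFN-γ. On the right, LE and PE by label are high and IFNy and SE+IFNy by label are low.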

How the data were processed

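The authors deposited read counts per gene, whole numbers with no normalization. Per the study's methods, stranded poly(A) libraries were read single-ended over 100 bases and uniquely aligned reads were counted with featureCounts on GENCODE M12 (GRCm38.p5). The aligner is not given in the sources used here. Samples were grouped by GEO's labels. The 6 members were chosen by symbol, and members and gene lists were chosen with earlier results of these data known, so all lists are descriptions. Within the letter-labelled libraries, each comparison used edgeR 4.0.16 (R 4.3.3; TMM scaling, filterByExpr, quasi-likelihood F test, Benjamini-Hochberg over all genes of the fit), with 1 spread shared by the groups fitted together. A gene was called at an adjusted p under 0.05 and a fold change over 1.5, as in the study. CPM used TMM-scaled totals. The fits were tested on simulated data. No 2 replicate libraries agreed within sampling noise (lowest chi-square per degree of freedom 3.89). For these cells the study describes 6 biological replicates in 2 independent experiments, whereas the fits here use 3 libraries a group. The labels name no separate cultures, so p-values measure the spread between these libraries. Of the gene names, 26 looked like dates and 4 rows had repeated names, and these were kept in totals but not named. Alternatives were DESeq2 1.42.0, other scalings, no filter, all groups in 1 fit, a replicate block, leaving out replicates, the HLA-labelled libraries and summed Tgtp copies. Named genes were all members, the listed genes and the 3 genes most correlated with each member. Some listed genes are not reported here.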

Additional observations from a re-analysis of the deposited data

Results flagged for a closer look

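A difference between groups was found for Irgm1. Its response to IFN-γ was smaller with SE than without a peptide, by a log2 interaction of -0.50 (edgeR adjusted p 0.0317). It was -0.26 without IFNy replicate 2 (edgeR adjusted p 0.113) and -0.64 without replicate 1 of every group (edgeR adjusted p 0.0836). The main value is under the fold minimum, and all 3 SE+IFNy libraries (149 to 161 CPM) were below the 3 IFNy libraries (165 to 266 CPM).

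The HLA-labelled libraries, which the comparisons do not use, held a signal above their PBS libraries in groups whose labels name no IFN-γ. In those labelled LE the means were 223 CPM for Irgm1, 53.8 for Irgm2, 87.8 for Igtp, 192 for Iigp1, 14.9 for Tgtp1 and 67 for Tgtp2. In those labelled PE they were 206, 67.6, 70.3, 217, 12.7 and 77 CPM. The HLA-labelled PBS libraries had 56.7, 21.8, 8.01, 0.172, 0 and 0.0953 CPM. All 6 members moved together with the 20 IFN-γ targets, and the reason was not tested. The order of the HLA-labelled columns in the count table differs from that of the labels, and the values are given by label only. Groups of 3 libraries were too small for a check of single libraries.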

How the results depend on the processing

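On the letter-labelled libraries, 809 of 821 recomputed member values kept their side of the threshold, 12 became calls, none of the main calls was lost or reversed, and 43 values not called under either setting changed sign. DESeq2, RLE scaling, upper quartile scaling, no filter on low counts, all 8 groups in 1 fit and the replicate block changed no member call (78 of 78 kept each). These totals include the effectors' calls for IFNy against PBS and for each peptide with IFN-γ against that peptide. Such calls hold no information, so the totals overstate how stable the results are. Replicate numbers did not meet the requirement for pairing, a correlation over 0.1 in every pair: deviations of same-numbered libraries correlated at -0.11 to 0.23 (median 0.05) and of different-numbered ones at -0.22 to 0.24 (median -0.02), and 25 of 84 pairs were over 0.1. Of 24 libraries, 16 correlated best with their own number, a hint of pairing from the data that no label states. Under the replicate block the genes called for LE against PBS went from 3 to 7. Leaving out 1 library a group or 1 IFNy library, the latter chosen after seeing the data, gave 0 to 1 members called for PE against PBS, 0 to 1 for LE+IFNy against IFNy, 0 to 2 for SE+IFNy against IFNy and 0 to 1 for the SE interaction. Across all settings on these libraries, the count over all genes moved by over 1.5 times for LE against PBS (0 to 57, main 3, with 57 from no filter on low counts and 0 to 1 without a replicate), SE against PBS (3 to 419, main 239), PE against PBS (0 to 1021, main 389), PE+IFNy against IFNy (4 to 250, main 80), the SE interaction (551 without replicate 1, main 1043) and the PE interaction (0 to 61, main 0, with 61 from no filter and 0 to 1 without a library). Depth limits the effectors most, with 0 to 10 counts per group without IFN-γ.

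Adding the HLA-labelled libraries, of which 12 of 24 went against their label, changed the results. With both series and no block, 0 members were called for IFNy against PBS and for each peptide with IFN-γ against that peptide (6 each in the letter-labelled libraries, where only the calls of the 3 regulators can be read). With the series as a block these 4 counts were also 0, and there were 5 calls for LE against PBS, 4 for PE against PBS, 2 for LE+IFNy against IFNy, 3 for LE+IFNy against SE+IFNy and 2 for SE+IFNy against PE+IFNy, where 3.14% to 8.14% of all genes were called. Irgm1 for LE against PBS turned to 0.99 there. In the comparisons with PBS the effectors passed the filter only through the HLA-labelled libraries labelled LE or PE, so their calls hold no information. The regulators called were Irgm1 and Igtp for LE against PBS and Igtp for PE against PBS. In the HLA-labelled libraries alone, 0 members were called for IFNy against PBS, SE+IFNy against SE and PE+IFNy against PE, 6 for each of LE and PE against PBS, LE+IFNy and PE+IFNy against IFNy, LE+IFNy against SE+IFNy and SE+IFNy against PE+IFNy, 3 for the LE interaction and 1 for the PE interaction. In each comparison with 6 calls, the effectors were near 0 in 1 of the groups compared. They passed the filter only through the groups with high levels, so only the calls of the 3 regulators can be read there. The interactions of the effectors rest on a base near 0, and the regulators called were Irgm2 and Igtp with LE and Irgm2 with PE. For LE+IFNy against LE, Irgm1, Igtp, Tgtp1 and Tgtp2 were called lower. The shares of all genes called were 28.6% and 25.5% for LE and PE against PBS and 13.4% to 17.8% for the others with a member called.

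The values reversed in the HLA-labelled libraries alone, as log2 fold changes by label, were these. IFNy against PBS gave -0.32 for Irgm1, -0.43 for Irgm2 and -0.22 for Igtp. LE against PBS gave 1.98 for Irgm1 and 1.31 for Irgm2, and PE against PBS 1.87 and 1.65. LE+IFNy against IFNy gave 2.21 for Irgm2 and 8.65 for Iigp1. PE+IFNy against IFNy gave 1.88 for Irgm1, 2.44 for Irgm2, 2.96 for Igtp, 9.01 for Iigp1 and 8.40 for Tgtp2. Over the libraries labelled IFNy, Iigp1 had 25 counts and Tgtp2 had 11, so their values against this group depend on the prior count. SE+IFNy against PE+IFNy gave -3.07 for Igtp. LE+IFNy against LE gave -0.75 for Irgm1, -0.88 for Igtp, -0.42 for Iigp1, -0.75 for Tgtp1 and -0.60 for Tgtp2. SE+IFNy against SE gave -0.07 for Irgm1, -0.27 for Irgm2 and -0.25 for Igtp. It gave -0.40 for Iigp1 and -1.80 for Tgtp1 (edgeR adjusted p 0.942 and 0.848), which cannot be read as changes. Iigp1 had 17 counts over the libraries labelled SE and 9 over those labelled SE+IFNy, and Tgtp1 had 1 and 0. PE+IFNy against PE gave -0.31 for Irgm1, -0.41 for Igtp, -0.24 for Iigp1, -0.35 for Tgtp1 and -0.52 for Tgtp2. The LE interaction gave 0.90 for Irgm2 and -0.67 for Igtp. The cause was not tested.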

Other observations

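Among the 12 letter-labelled libraries with IFN-γ, the summed level of the 6 members was 471 ± 119 CPM in IFNy, 476 ± 24.4 in LE+IFNy, 374 ± 14.1 in SE+IFNy and 408 ± 29.3 in PE+IFNy (SD, n = 3), so the spread was largest where replicate 2 stood apart at 609 CPM against 412 and 393. The ratio of Irgm1 to Igtp was 6.8 ± 0.496 in PBS and 2.66 ± 0.18 in IFNy, and it was 1.98 to 2.01 in the 3 SE+IFNy libraries, the narrowest range of the 8 letter-labelled groups. Other promoter windows of the family with a motif match were those of Gm12250 (1 GAS, 2 ISRE) and 9930111J21Rik1 (1 ISRE), and those of Ifi47, Gm5431, 9930111J21Rik2 and Irgq held none.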
